A study of Homo sapiens with 6 samples.

Results

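The genes described here encode the machinery that lies between and around the doublet microtubules of a motile cilium. They comprise 50 genes of the radial spokes, the central pair apparatus, the nexin-dynein regulatory complex, the tektins and other microtubule inner proteins, together with proteins that attach to the axoneme. The genes were listed by name and role, with no expression value in the rule, though earlier results of these data were known when the list was made, and all 50 matched 1 row each of the 40396 Ensembl gene IDs in the table of expression values. RNA-seq was performed on H1 cells, a human embryonic stem cell line, on day 3 of differentiation toward definitive endoderm (DE), the embryonic layer from which gut, liver and pancreas arise. All libraries came from cells grown with activin A at 50 ng/ml, and with the Wnt pathway activator CHIR99021 at 2.5 µM for the first 24 h. In the SAR group (3 libraries), saracatinib, a small-molecule inhibitor of Src family and Abl kinases, was present at 0.5 µM over the 3 days, and in the control group (3 libraries) the same volume of its solvent DMSO was added. Nothing in the labels says that the 3 libraries of a group came from separate cultures, so p-values measure only the spread between these libraries. H1 is a single line, and a library is bulk RNA, in which more cells that express a gene and more RNA per cell cannot be told apart.

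A motile cilium is built on a ring of doublet microtubules around a central pair. Dynein arms drive sliding between doublets, radial spokes pass signals from the central pair to the dyneins, and the nexin-dynein regulatory complex links neighbouring doublets so that sliding becomes bending. Tektins and other inner proteins line the lumen of the doublets and stiffen them. Motile cilia of this kind are carried by airway, oviduct and ependymal cells, and by sperm as the flagellum. Cells of the embryonic node carry single motile cilia, whose beat sets the left-right axis and to which the central pair described above need not apply.

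Expression was given as FPKM, a measure in which gene length and library size have been divided out of the number of sequenced fragments. Library totals, recovered from the smallest steps of the FPKM, ran from 18877964 to 24419937 reads in control and from 16681280 to 18389543 reads with SAR. Control replicate 1 listed 33169 genes above 0 FPKM, against 29506 to 30109 in the other 5 libraries. It was also the highest control library for 22 of the 30 axoneme genes that were tested and for 18 of the 20 that were too low to test, against 42.4% of all tested genes and 48.1% of all genes under the filter. The main count is therefore also given without it. Differences were tested with limma on log2(FPKM + 0.1) in the 16371 genes that averaged 0.5 FPKM or more across the libraries, and p-values were adjusted over all of these genes. A gene is called upregulated when its adjusted p-value was under 0.05 and its log2 difference above 1, and downregulated when the latter was under -1. The added 0.1 understates the change of genes with low FPKM.

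Of the 50 axoneme genes, 30 passed the expression filter. With SAR, 14 of the 30 were upregulated, where 3.41% of all tested genes were, and none was downregulated (limma; 1 of 30, DRC3, was lower at an adjusted p-value under 0.05 alone), where 1.58% of all tested genes were. At an adjusted p-value under 0.05 with no minimum change, 20 of the 30 were higher, where 23.7% of all tested genes were, and 1 was lower, where 9.55% were. In number, 559 of all tested genes were upregulated and 259 downregulated, and 403 and 362 with median-ratio scaling. The median log2 difference of the 30 genes was 0.95, where all tested genes stood at 0.119, and 28 of the 30 differences were above 0, where 64.0% of all tested genes were. With the libraries brought to a common median ratio the median of the 30 genes was 0.84 and that of all tested genes 0.001, and 13 of the 30 were upregulated and 1, DRC3, downregulated, where 2.46% and 2.21% of all tested genes were. Relative to the control mean, the median of the 30 genes lay at 0.95, 0.81 and 0.99 on the log2 scale in SAR replicates 1, 2 and 3 and at 0.16, -0.10 and -0.06 in control replicates 1, 2 and 3. Without control replicate 1, 15 of the 30 were upregulated, and 722 of all 16388 genes tested were, against 559 with it.

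The filter is a mean over both groups, and 8 of the 14 upregulated genes (RSPH1, RSPH4A, SPAG6, DRC1, CFAP52, EFHC2, ENKUR and CAPSL) were under 0.5 FPKM in control. They passed it only through their SAR libraries, so that they could not have been tested without being higher with SAR, and the counts over the tested genes carry that condition. With no filter all 50 genes were tested by limma, 17 were upregulated, where 1.56% of all genes were, and none was downregulated (DRC3 at -0.94, adjusted p-value 0.0157), where 0.787% were.

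The levels were low in absolute terms. The median over the 50 genes was 0.356 FPKM in control and 1.17 FPKM with SAR, and the number of genes with a group mean of at least 1 FPKM was 13 in control and 27 with SAR. Of the 20 tested genes with a mean of 1 FPKM or more over all libraries, 9 were upregulated, and of the 10 tested genes with a lower mean, 5 were. With that minimum applied to all genes, 369 of 13490 were upregulated. The mean includes the SAR libraries, and of the 9 genes RSPH4A, DRC1, CFAP45, CAPSL and TPPP3 were under 1 FPKM in control. In 31 of the 50 genes all 3 SAR libraries lay above all 3 control libraries, in 1 they lay below, and in 18 the groups overlapped. Among the 30 tested genes 21 had all SAR libraries above the controls, where 35.5% of all tested genes did, and 1 had all of them below, where 15.2% did.

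**Figure D1:**
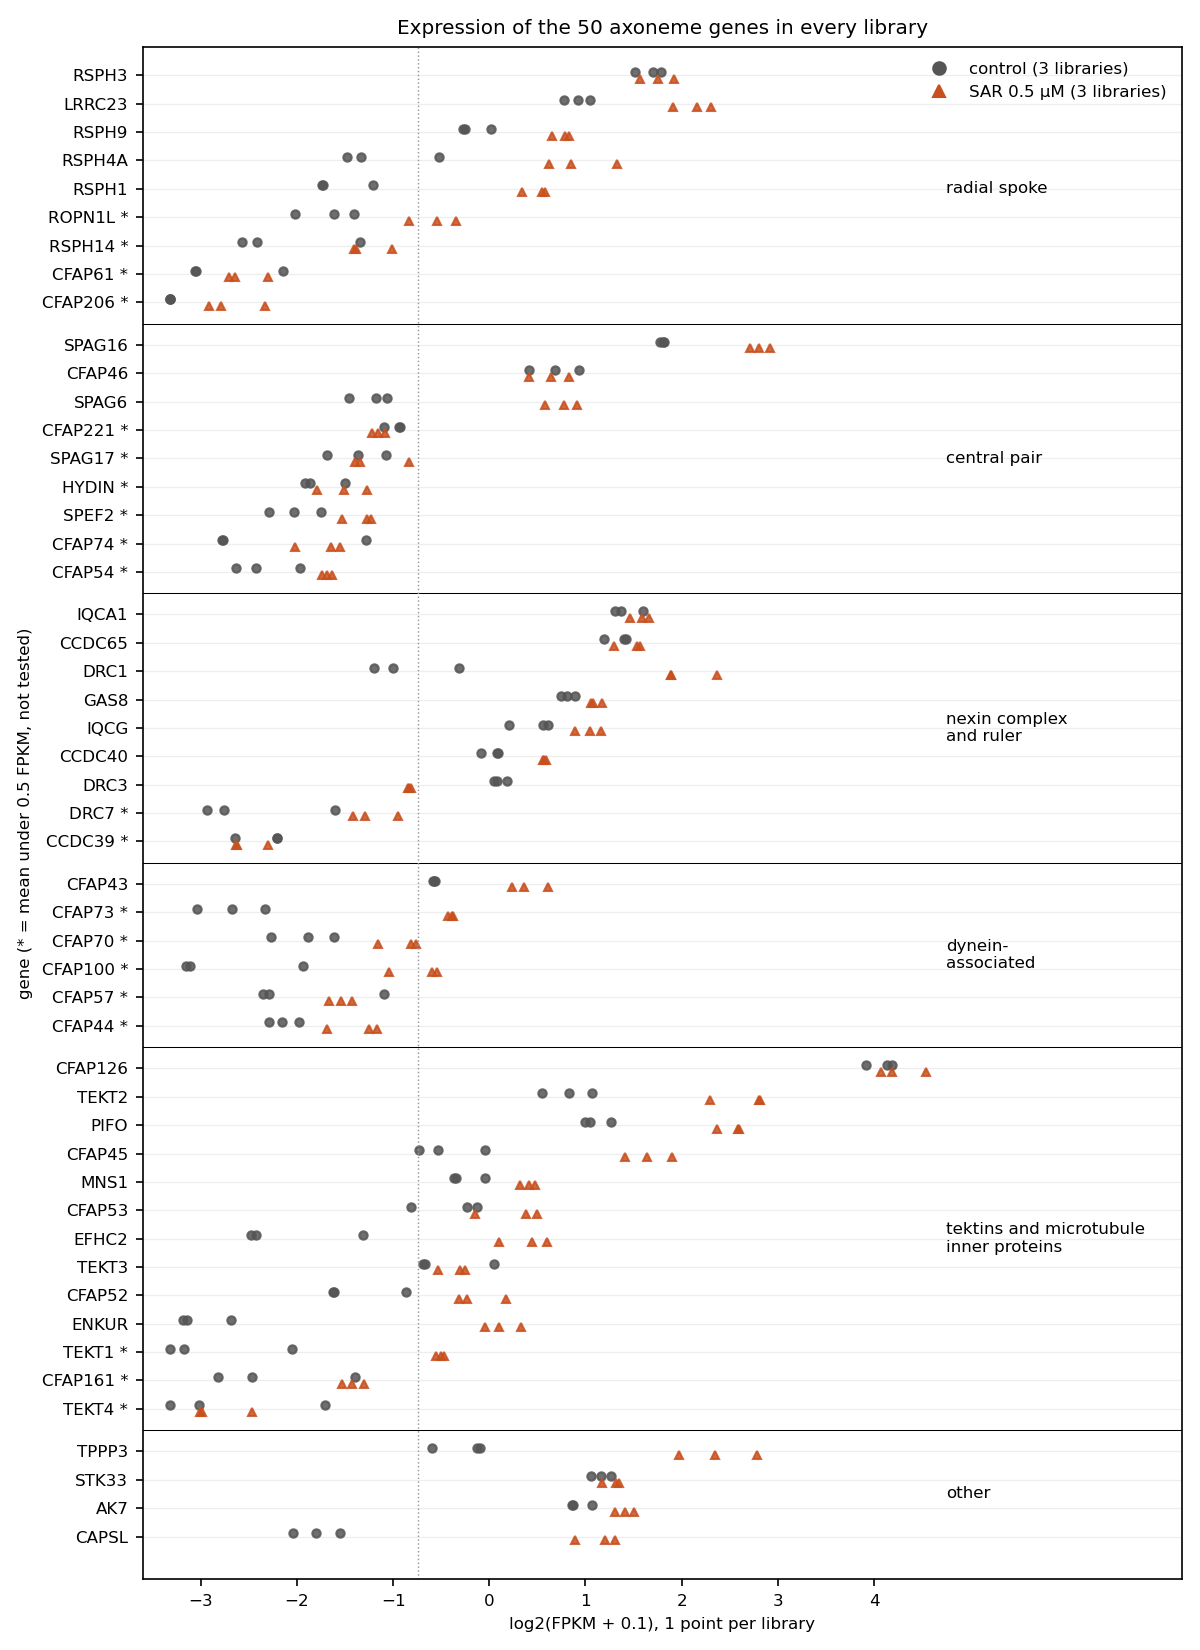
Expression of each of the 50 axoneme genes, by role, in every library as log2(FPKM + 0.1), with 1 point per library, circles for the 3 control libraries and triangles for the 3 SAR libraries. The dotted line marks 0.5 FPKM and asterisks mark the 20 genes whose mean over the 6 libraries was lower. Triangles lie to the right of all circles in 31 genes and to the left in 1, DRC3.

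The sequence around the start sites of the axoneme genes was examined next. Many ciliary genes carry an X-box near the start, an imperfect inverted repeat bound by RFX transcription factors, and FOXJ1, the forkhead factor that switches on motile cilium genes, binds a forkhead-type sequence. RefSeq promoters (GRCh38.p14, 250 bases before to 50 bases after the start) were on hand for 41 of the 50 genes, in 50 windows. They were searched on both strands for GTTGCC, for GTTNCC followed within 0 to 3 bases by GGNAAC, for the looser pair GTNNCC and GGNAAC at the same spacing, which includes every match of the stricter pair, and for GTAAACA. A single GTTGCC can lie inside either pair, and the letters were settled after matches in these windows had been seen, so the counts are a description. GTTGCC stood in 25 of the 50 windows (50.0%) and in 12.2% of the 35116 windows of all genes. The stricter pair stood in 5 of the 50 (10.0%) against 0.74%, the looser pair in 12 (24.0%) against 2.4%, and GTAAACA in 4 (8.0%) against 3.42%. By gene, a match in any of its windows was counted, and the upregulated RSPH1, TEKT2 and TPPP3 had no window. The looser pair was found in 7 of 11 upregulated genes, in 3 of 14 tested genes that were not called and in 2 of 16 genes under the filter. GTTGCC was found in 10 of 11, 7 of 14 and 7 of 16.

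To show what such matches look like, the 60 bases that end just before an annotated start are printed 5′ to 3′ on the strand of the gene for 9 genes, 7 with a match and 2 without. ENKUR (chr10:25016159-25016218, minus strand), CFAP45 (chr1:159900166-159900225, minus), EFHC2 (chrX:44343673-44343732, minus) and CFAP100 (chr3:126394849-126394908, plus) held a pair. RSPH4A (chr6:116616419-116616478, plus), DRC1 (chr2:26401860-26401919, plus) and CAPSL (chr5:35938780-35938839, minus) held GTTGCC alone, read on the other strand as GGCAAC. RSPH3 (chr6:159000203-159000262, minus), which did not differ at a detectable level, and DRC3 (chr17:17972753-17972812, plus), which was lower with SAR, held none of the letters searched. The printed genes do not show the exceptions: CFAP52, which was upregulated, held none of the letters searched, whereas GAS8 held the stricter pair and CFAP46 and RSPH9 the looser pair, and none of the latter 3 was called by limma on FPKM (RSPH9 was by limma-voom). Of the 2 annotated starts of ENKUR, the other (window chr10:25062278-25062577) had no match. Capitals mark the matched letters.
ENKUR: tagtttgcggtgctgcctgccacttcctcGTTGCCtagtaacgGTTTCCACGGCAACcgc
CFAP45: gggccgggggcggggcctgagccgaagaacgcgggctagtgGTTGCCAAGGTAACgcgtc
EFHC2: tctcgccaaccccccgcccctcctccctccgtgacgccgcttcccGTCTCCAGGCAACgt
CFAP100: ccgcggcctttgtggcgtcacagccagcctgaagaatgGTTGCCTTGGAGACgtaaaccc
RSPH4A: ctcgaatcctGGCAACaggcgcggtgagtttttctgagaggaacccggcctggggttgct
DRC1: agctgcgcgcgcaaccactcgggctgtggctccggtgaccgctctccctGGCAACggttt
CAPSL: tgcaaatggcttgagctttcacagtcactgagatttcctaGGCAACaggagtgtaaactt
RSPH3: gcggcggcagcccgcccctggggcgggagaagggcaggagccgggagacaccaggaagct
DRC3: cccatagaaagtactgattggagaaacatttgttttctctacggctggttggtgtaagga
A match says only that these letters are present, and whether any factor bound there was not measured.

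Of the 9 radial spoke genes, 5 were tested and 3 were upregulated, with a median log2 difference of 1.21 over the 5. RSPH1 and RSPH4A encode parts of the spoke head, the end that meets the central pair, and mutations in either cause primary ciliary dyskinesia. RSPH1 (ENSG00000160188, chromosome 21) was at 0.333, 0.199 and 0.202 FPKM in control replicates 1 to 3 and at 1.39, 1.17 and 1.36 FPKM in SAR replicates 1 to 3. Every SAR library stood above every control library, with group means of 0.245 ± 0.0763 and 1.31 ± 0.122 FPKM (SD, n = 3), and the log2 difference was 2.05 ± 0.239 (SE, adjusted p-value 0.00187, limma). RSPH4A (ENSG00000111834, chromosome 6) went from 0.595, 0.26 and 0.298 FPKM to 2.41, 1.7 and 1.44 FPKM. Control replicate 1 was the highest of its controls and still below every SAR library, and the log2 difference was 2.04 ± 0.308 (adjusted p-value 0.0043, limma). LRRC23, a leucine-rich repeat protein of the spoke head, was at 1.97, 1.8 and 1.61 FPKM in control and 4.38, 3.65 and 4.85 FPKM with SAR, again without overlap. Its log2 difference was 1.21 ± 0.126 (adjusted p-value 0.00133, limma), and 18.4% of its exon bases lie under a pseudogene of RPL13 on the same strand, which stood at 0.742 and 1.05 FPKM.

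RSPH9, also of the spoke head, had a mean of 0.795 FPKM in control and 1.59 FPKM with SAR. Its log2 difference of 0.92 (95% interval 0.59 to 1.25, adjusted p-value 0.00427, limma) was short of the minimum change, and 23.0% of its exon bases lie opposite MRPS18A. RSPH3, a stalk protein that anchors protein kinase A, was the highest of the spoke genes in control. It was at 2.76, 3.35 and 3.15 FPKM in control and 2.86, 3.27 and 3.69 FPKM with SAR, so that the groups overlapped. The log2 difference of RSPH3 was 0.08 with a 95% interval of -0.20 to 0.36 (adjusted p-value 0.63, limma), and its sign turned under median-ratio rescaling (-0.04). With SAR the mean of LRRC23, at 4.29 FPKM, was above that of RSPH3, at 3.27 FPKM, whereas in control it was 1.8 FPKM against 3.09 FPKM.

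**Figure D2:**
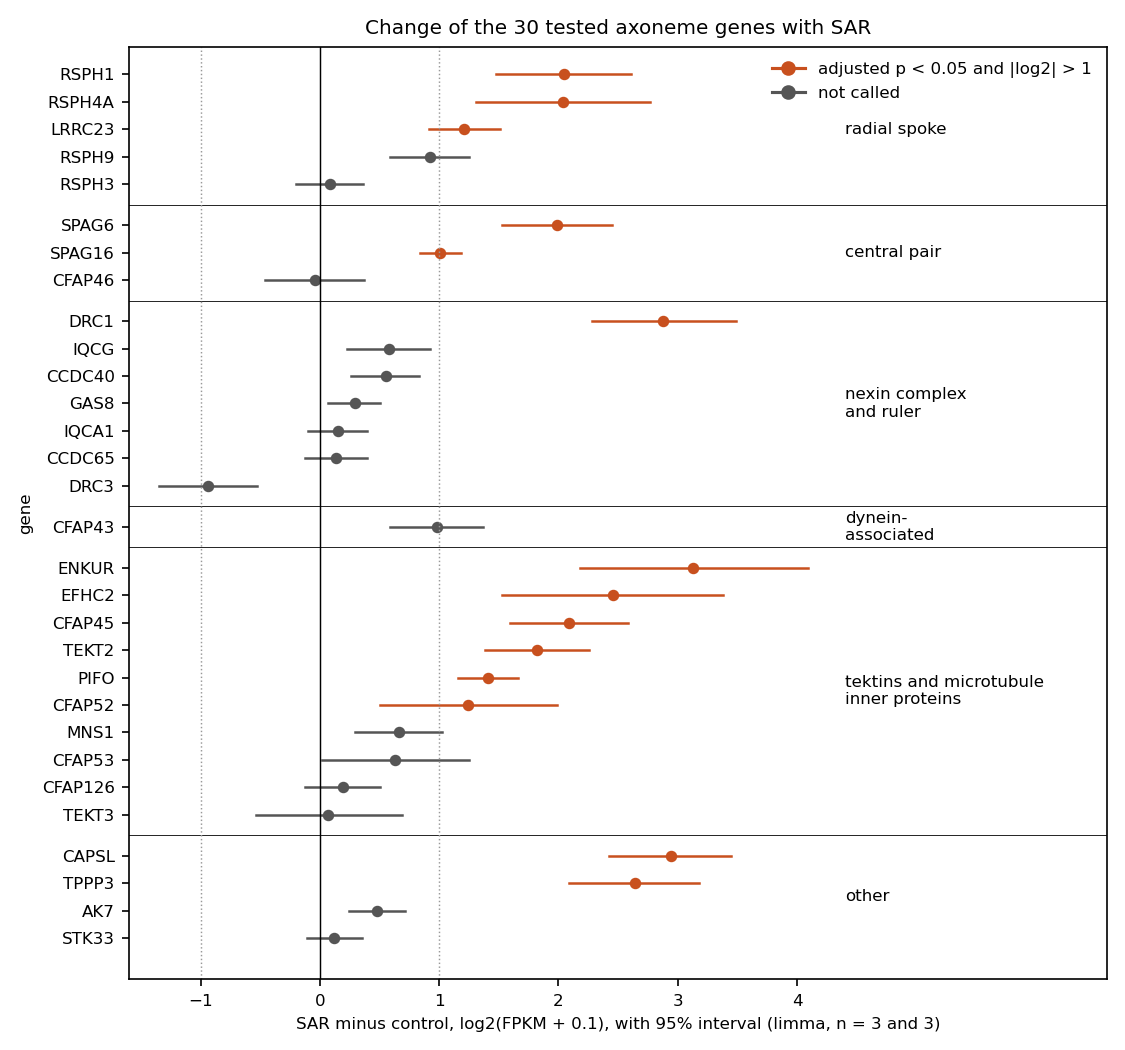
Log2 difference, SAR minus control on the log2(FPKM + 0.1) scale, of the 30 tested axoneme genes by role, with its 95% interval from limma (n = 3 and 3). Orange marks the 14 genes past both thresholds and dotted lines mark -1 and 1. DRC3 at -0.94 is the only gene whose whole interval lies below 0.

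Of the 9 central pair genes, 3 passed the filter, and 2 of these were upregulated. SPAG6, the armadillo-repeat protein needed for a stable central pair, was at 0.377, 0.264 and 0.342 FPKM in control and 1.78, 1.39 and 1.61 FPKM with SAR. The lowest SAR library was above the highest control, and the log2 difference was 1.99 ± 0.194 (SE, adjusted p-value 0.00115, limma). SPAG16, a WD-repeat protein of the bridge between the pair, was the most abundant of the central pair genes. Its levels were 3.43, 3.31 and 3.4 FPKM in control and 7.43, 6.45 and 6.87 FPKM with SAR, so close within each group that the SE was 0.0721 around a log2 difference of 1.01 (adjusted p-value 0.000432, limma). Because this difference sat at the minimum change, SPAG16 was not called after median-ratio rescaling, at 0.89, although the adjusted p-value there was 0.000653. CFAP46, a large protein of the projections of one central microtubule, was at 1.81, 1.5 and 1.23 FPKM in control and 1.23, 1.46 and 1.68 FPKM with SAR. The groups lay on top of each other, with a log2 difference of -0.04 and a 95% interval of -0.46 to 0.37. The remaining 6, among them HYDIN and SPAG17, were under the filter and are described with the low genes.

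The genes of the nexin-dynein regulatory complex and the ruler had the lowest median of the role groups with more than 1 tested gene, with 1 of 7 tested genes upregulated, none downregulated (limma; DRC3 lower at an adjusted p-value under 0.05 alone) and a median log2 difference of 0.29. The exception was DRC1 (ENSG00000157856, chromosome 2, 26401916 to 26456711), the scaffold on which the complex assembles. DRC1 was at 0.705, 0.336 and 0.4 FPKM in control and 3.6, 3.61 and 5.04 FPKM with SAR, the lowest SAR library being far above the highest control. The group means were 0.48 ± 0.197 and 4.08 ± 0.827 FPKM (SD, n = 3), and the log2 difference was 2.88 ± 0.254 (SE, adjusted p-value 0.000811, limma).

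The partner of DRC1 in the scaffold, CCDC65, did not differ at a detectable level, with 2.43 and 2.68 FPKM and a log2 difference of 0.13 (95% interval -0.13 to 0.39). In control the mean of CCDC65 was above that of DRC1, and with SAR it was below. IQCA1, a calmodulin-binding subunit, was the highest of the group over the 6 libraries that was not called. IQCA1 was at 2.38, 2.92 and 2.49 FPKM in control and 2.91, 3.06 and 2.65 FPKM with SAR, with overlap and a log2 difference of 0.15 (95% interval -0.10 to 0.39). GAS8, the long coiled-coil subunit that spans the linker, had all SAR libraries above the controls by a small amount, at means of 1.66 and 2.04 FPKM and a log2 difference of 0.29 (adjusted p-value 0.0511, limma). IQCG, at 0.58 (adjusted p-value 0.0233), and CCDC40, at 0.55 (adjusted p-value 0.0151), passed the limma test without reaching the minimum change. CCDC40 forms with CCDC39 the ruler that sets the spacing of spokes and dyneins along the doublet, and its means were 0.919 and 1.39 FPKM.

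DRC3, a leucine-rich repeat subunit of the complex on chromosome 17 (17972813 to 18016889), was singled out after its values were seen, as the only gene of the 50 that was lower in all SAR libraries. It was at 0.934, 0.961 and 1.04 FPKM in control and 0.458, 0.459 and 0.467 FPKM with SAR, so that the groups were apart and each was narrow. The log2 difference was -0.94 ± 0.172 (SE, 95% interval -1.35 to -0.53, adjusted p-value 0.00818, limma). It passed the minimum change when the libraries were rescaled by their median ratios, at -1.05, and when recovered reads were tested with limma-voom, at -1.07. The exons of DRC3 share 8.8% of their bases with ATPAF2 on the opposite strand, whose own log2 difference was -0.39 (adjusted p-value 0.0513, limma), and whether the counting used strand is not given in the sources used here.

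Of the 6 dynein-associated genes, CFAP43 alone passed the filter. It encodes a protein that tethers the motor domains of an inner dynein to the doublet. Its 3 control libraries, at 0.578, 0.57 and 0.568 FPKM, lay below the SAR libraries, at 1.18, 1.08 and 1.43 FPKM. The log2 difference of 0.98 ± 0.165 (SE, adjusted p-value 0.00613, limma) was just short of the minimum change, and with limma-voom on recovered reads CFAP43 was called at 1.1.

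Tektins and microtubule inner proteins made up the largest group, with 13 genes, 10 tested and 6 upregulated, and a median log2 difference of 1.32. ENKUR (ENSG00000151023, chromosome 10, 24981979 to 25062279), an inner protein whose loss in people gives reversed organ placement, had the largest log2 difference of the 30 genes. In control replicates 1 to 3 it was at 0.056, 0.01 and 0.013 FPKM, which is 5, 1 and 1 reads, and in SAR replicates 1 to 3 at 1.16, 0.869 and 0.974 FPKM, which is 79, 60 and 73 reads. From near absence the gene reached the level of 1 FPKM in the SAR group, with a log2 difference of 3.13 ± 0.403 (SE, adjusted p-value 0.00255, limma). A paired match lay next to 1 of its 2 annotated starts. Without the added 0.1, the ratio of reads per library total was 38.0, with a counting interval of 18.1 to 95.6. ENKUR was only just above the filter, and with any 1 SAR library left out it fell below and was not tested.

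EFHC2, an EF-hand protein of the doublet lumen, was at 0.302, 0.0861 and 0.0796 FPKM in control and 1.26, 0.975 and 1.42 FPKM with SAR. Control replicate 1 held 22 of its 34 control reads, and the groups were still apart, with a log2 difference of 2.46 ± 0.39 (SE, adjusted p-value 0.00502, limma). CFAP45, a coiled-coil inner protein, was at 0.869, 0.592 and 0.504 FPKM in control and 3.01, 2.56 and 3.64 FPKM with SAR. Its log2 difference was 2.09 ± 0.211 (adjusted p-value 0.00122, limma), and its lowest SAR library was above its highest control. The promoters of EFHC2 and CFAP45 each held a paired match. TEKT2, a tektin filament protein of the doublet wall, was at 2.0, 1.36 and 1.68 FPKM in control. With SAR it was at 6.89, 4.79 and 6.91 FPKM, and the log2 difference was 1.82 ± 0.186 (adjusted p-value 0.00126, limma).

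PIFO, an inner protein also known from the disassembly of primary cilia, was at 2.3, 1.9 and 1.97 FPKM in control and 5.89, 5.05 and 5.96 FPKM with SAR. Replicates were close and the log2 difference was 1.41 ± 0.104 (SE, adjusted p-value 0.000491, limma). CFAP52, a WD-repeat inner protein, had a mean of 0.299 FPKM in control and 0.828 FPKM with SAR and a log2 difference of 1.24 ± 0.313 (adjusted p-value 0.0236, limma). Its call was the weakest of the 14: it was lost with control replicate 2, control replicate 3, SAR replicate 1 or SAR replicate 2 left out (adjusted p-values 0.0677, 0.0735, 0.0519 and 0.0652), and without SAR replicate 3 the gene was below the filter.

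Among the 4 tested genes of the group that were not called, MNS1, an inner protein needed for sperm tails and for left-right patterning, had a log2 difference of 0.66 (adjusted p-value 0.0192, limma). CFAP53, another inner protein tied to left-right patterning, had a similar difference of 0.63 with wider error (95% interval 0.02 to 1.25, adjusted p-value 0.1). TEKT3, a second tektin, was at 0.66 and 0.68 FPKM in the 2 groups, and its difference of 0.07 (95% interval -0.54 to 0.69) turned to -0.03 after median-ratio rescaling. CFAP126 was listed at the highest level of the 50 genes, at 15, 17.5 and 18.1 FPKM in control and 16.7, 18.1 and 23.2 FPKM with SAR. The groups overlapped (log2 difference 0.19, 95% interval -0.13 to 0.50). All of the exon bases of CFAP126 lie opposite SDHC, a mitochondrial gene at 71.7 and 70.5 FPKM, so that without knowledge of the strand setting its reads cannot be told apart from those of SDHC.

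**Figure D3:**
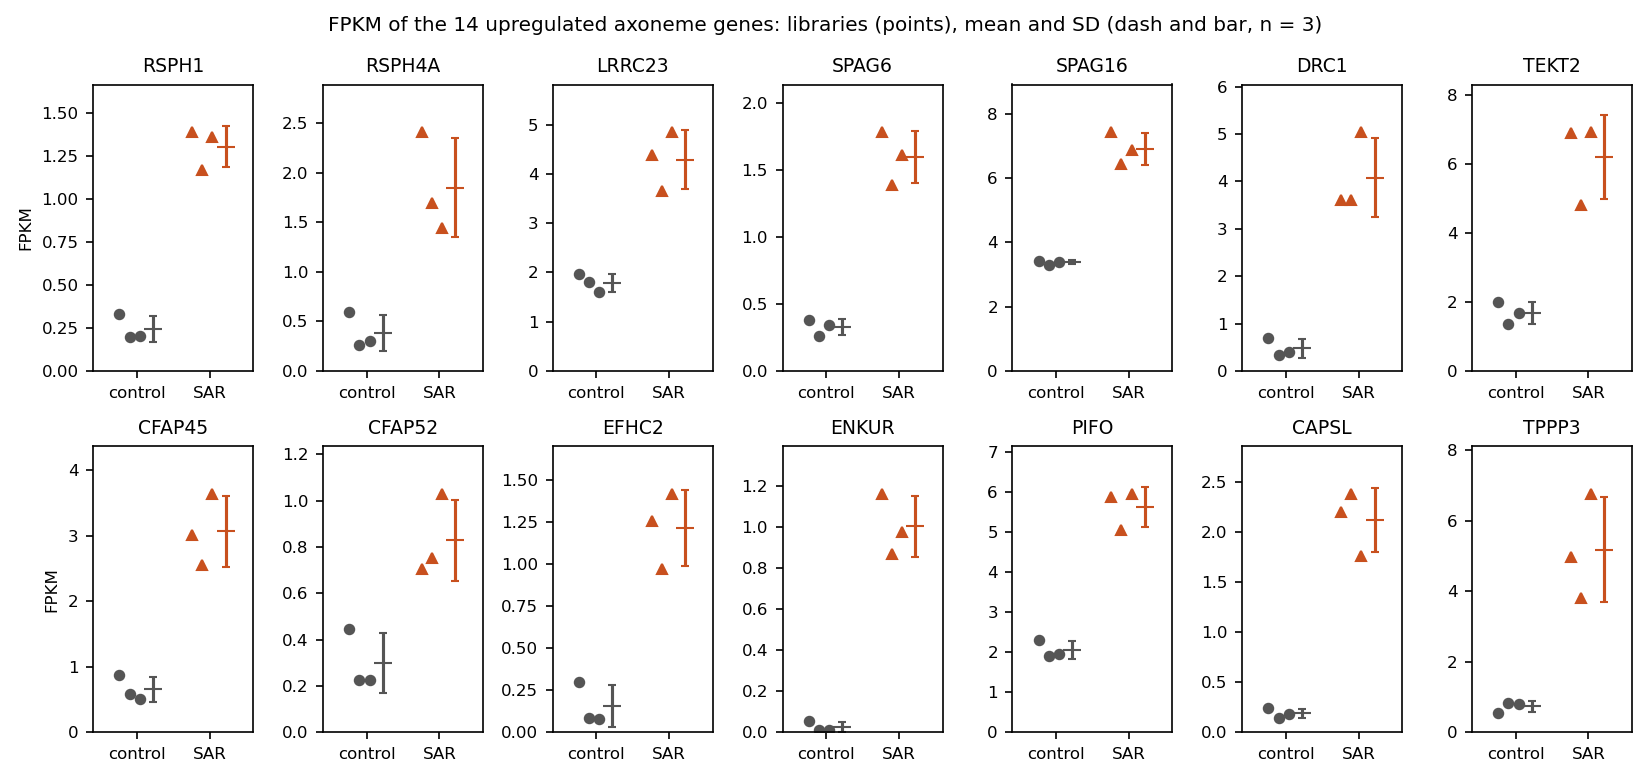
FPKM of the 14 upregulated axoneme genes on linear axes that start at 0, with circles for control replicates 1 to 3 and triangles for SAR replicates 1 to 3, and beside them the mean (dash) and SD (bar, n = 3). In each gene the lowest SAR library is above the highest control library, as in SPAG16 at 6.45 against 3.43 FPKM.

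The other 4 axoneme-associated genes were all tested, and 2 were upregulated. CAPSL, a calcium-binding protein of ciliated cells, was at 0.24, 0.143 and 0.186 FPKM in control and 2.2, 2.38 and 1.76 FPKM with SAR. The groups did not overlap, and the log2 difference of 2.94 ± 0.218 (SE, adjusted p-value 0.000491, limma) rested on 14 control reads and 125 SAR reads in all. TPPP3, which bundles microtubules, was at 0.562, 0.834 and 0.815 FPKM in control and 4.98, 3.81 and 6.77 FPKM with SAR. Its lowest control library was replicate 1, unlike that of any other of the 14 upregulated genes, and its log2 difference was 2.64 ± 0.23 (adjusted p-value 0.000767, limma). AK7, an adenylate kinase of the cilium, had means of 1.81 and 2.56 FPKM and a log2 difference of 0.48 (adjusted p-value 0.013, limma), short of the minimum change. STK33, a kinase of the sperm tail, was at 2.31, 1.98 and 2.13 FPKM in control and 2.45, 2.4 and 2.15 FPKM with SAR. Its groups overlapped, with a log2 difference of 0.12 and a 95% interval of -0.11 to 0.35.

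The 20 genes under 0.5 FPKM had at most 166 reads in a library and were outside the main limma test. In 10 of them all SAR libraries lay above all controls, against 7.95% of all genes under the filter, in none below, against 4.03%, and in 10 the groups overlapped. Recovered reads were tested in addition for genes averaging 10 reads or more, with limma-voom on 18131 genes, a filter chosen after the data had been seen. Among the 16 of the 20 that this filter kept, 8 were called upregulated, where 5.09% of all genes in that test were, and none was called downregulated (limma-voom; none lower at an unadjusted p-value under 0.05 either). Over all 46 of the 50 genes that could be so tested, 24 were upregulated and 1, DRC3, was downregulated, where 1.89% of all genes were.

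TEKT1, a tektin, had 12, 1 and 0 reads in control replicates 1 to 3 and 39, 38 and 44 reads in SAR replicates 1 to 3. Of its 13 control reads 12 came from replicate 1, and the limma-voom log2 difference was 4.56 ± 0.728 (SE, adjusted p-value 0.00115). CFAP100 and CFAP73 form together the complex that modifies inner dynein arms. CFAP100 had 12, 1 and 1 reads in control and 33, 22 and 35 with SAR, a log2 difference of 3.62 ± 0.645 (adjusted p-value 0.00205, limma-voom). CFAP73 had 4, 1 and 2 reads in control and 20, 21 and 23 with SAR, a log2 difference of 3.43 ± 0.467 (adjusted p-value 0.000464, limma-voom). CFAP73 moved from near absence to a low level in every SAR library. For CFAP100 near absence held in control replicates 2 and 3 only, as replicate 1 held 12 of its 14 control reads. Of the exon bases of CFAP73, 29% lie opposite DDX54, which stood at 12 and 12.4 FPKM.

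Of the other low genes called by limma-voom, DRC7, a subunit of the nexin complex, had a log2 difference of 2.11 (adjusted p-value 0.012), ROPN1L, a docking protein of the spoke stalk, 1.39 (0.0122) and CFAP70, which binds outer dynein arms, 1.39 (0.00429). CFAP44, the partner of CFAP43, had 1.15 (adjusted p-value 0.00729, limma-voom) and CFAP54, of the central pair projections, 1.14 (0.0137). With them, 5 of the 6 dynein-associated genes were upregulated by limma-voom. With no filter, 3 of the 20 low genes were upregulated by limma, TEKT1, CFAP100 and CFAP73. DRC7, ROPN1L, CFAP70, CFAP44 and CFAP54 were not (adjusted p-values 0.151, 0.0598, 0.0942, 0.183 and 0.261, limma). In DRC7 control replicate 1 had 26 of the 35 control reads. SPEF2, a central pair protein, was higher in all SAR libraries at 0.99 (adjusted p-value 0.0086, limma-voom), short of the minimum change.

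Of the central pair genes under the filter, HYDIN, SPAG17, CFAP221 and CFAP74 did not differ at a detectable level in the limma-voom test. HYDIN, which forms a long projection of the pair, had 160, 123 and 90 reads in control and 120, 92 and 166 with SAR. Its limma-voom difference was 0.34 with a 95% interval of -0.14 to 0.82, and its counts are uncertain because of a near-identical copy, HYDIN2. For SPAG17 the difference was 0.24 (95% interval -0.34 to 0.82), for CFAP221 -0.21 (-0.57 to 0.16) and for CFAP74 1.15 (-0.12 to 2.41), in which control replicate 1 had 71 of the 92 control reads. CCDC39, the partner of CCDC40 in the ruler, was at -0.35 (95% interval -1.16 to 0.46), and its row is 1 of 2 gene IDs of that name in the annotation that share 79.8% of its exon bases. RSPH14, at 1.30 (0.22 to 2.38, adjusted p-value 0.0601), and CFAP57, at 0.64 (-0.35 to 1.64), completed the 16. In CFAP57 control replicate 1 was the highest of the 6 libraries, and in RSPH14 it lay between the SAR libraries. Overlap with other genes was also found for SPAG17 (18.4% of exon bases, opposite WDR3), CFAP44 (25%, a model on the same strand) and TEKT4 (58.5%, opposite a pseudogene), and among the tested genes for GAS8 (25.1%, opposite the pseudogene URAHP) and MNS1 (18.5%, opposite TEX9).

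Too few reads for the limma-voom test were found for CFAP61, CFAP161, TEKT4 and CFAP206. With no filter none of them was called by limma. Their log2 differences there were 0.2, 0.8, -0.14 and 0.65 (adjusted p-values 0.745, 0.332, 0.885 and 0.126, limma). CFAP206, a protein at the base of a radial spoke, had 0 reads in each control library and 6, 2 and 3 with SAR, which is at least 4.6-fold higher with a floor of 3 reads over the control group, and 55.7% of its exon bases are shared with another gene model on the same strand. TEKT4 had 10, 0 and 1 reads in control and 3, 1 and 1 with SAR. CFAP61 had 29 control and 30 SAR reads, of which 22 came from control replicate 1, and CFAP161 had 17 and 28, of which 12 came from control replicate 1. The floor of CFAP206, like the counting interval given for ENKUR, covers counting error only.

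**Figure D4:**
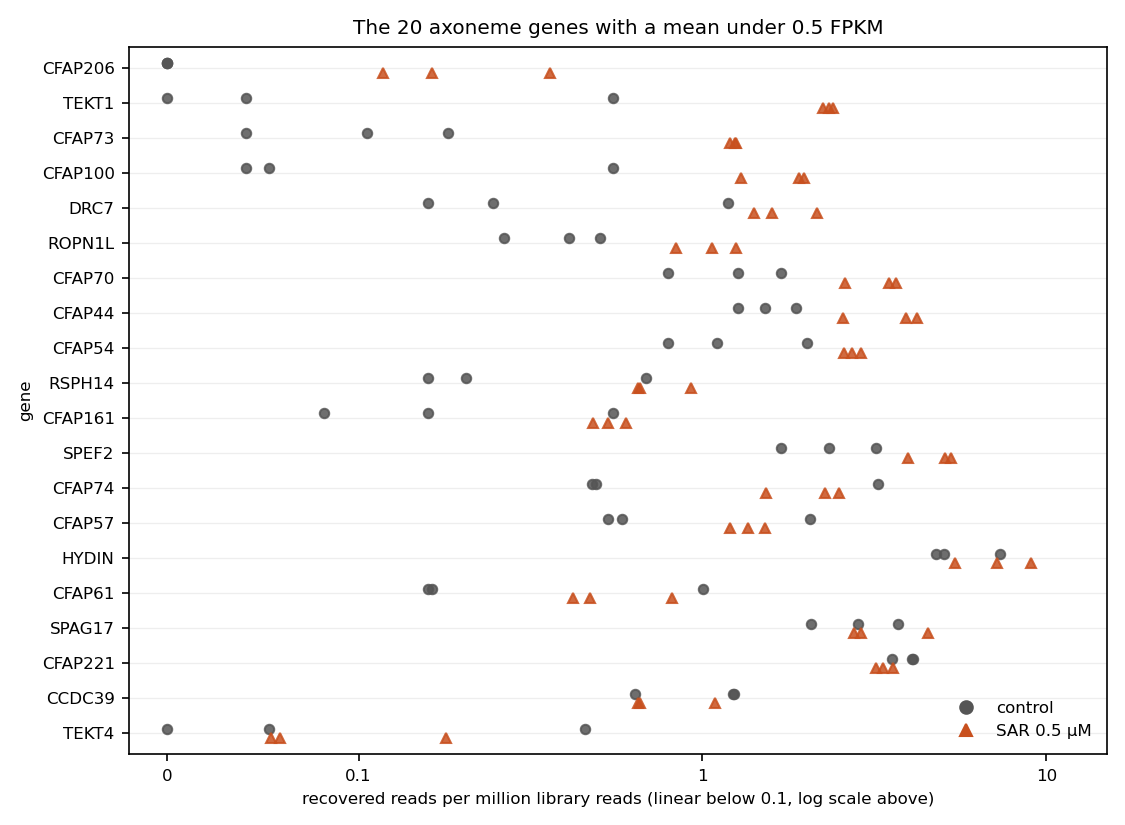
Recovered reads, scaled to library size, of the 20 axoneme genes with a mean under 0.5 FPKM, on an axis that is linear below 0.1 and logarithmic above, with circles for control and triangles for SAR libraries. TEKT1, CFAP73 and CFAP100 lie apart from every control library, and the 2 groups of HYDIN, SPAG17 and CFAP221 overlap.

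Other genes of the ciliary pathway were read from lists written for comparison. Of 41 genes of axonemal dynein arms and their assembly, 24 were tested and 6 were upregulated, where 3.41% of all tested genes were. By limma none of the 24 was downregulated, where 1.58% were, and none was lower at an adjusted p-value under 0.05 alone. Their median log2 difference was 0.71. With no filter 6 of the 41 were upregulated by limma, where 1.56% of all genes were. By limma-voom at 10 reads or more, 14 of 38 were upregulated and 1 was downregulated, where 5.09% and 1.89% of all genes in that test were. In the main limma test, the 5 with the smallest adjusted p-values were ODAD1, which docks outer arms, at 2.28, ZMYND10, an assembly factor, at 1.91, ODAD4 at 1.26, DNAI7 at 1.32 and CFAP300 at 1.12. ODAD1, ZMYND10 and DNAI7 were at 0.4, 0.303 and 0.425 FPKM in control, and the called gene not named was at 0.266 FPKM. All of these passed the filter only through their SAR libraries. Of 20 regulators of ciliogenesis, 13 were tested and 3 were upregulated, where 3.41% of all tested genes were. These 3 were FOXJ1 at 4.4, the node gene NOTO at 3.65 and CCNO at 1.41, around a list median of 0.23. In control these 3 were at 0.463, 0.0656 and 0.386 FPKM, so they too passed the filter only through their SAR libraries. With no filter 2 of the 20, FOXJ1 and NOTO, were upregulated by limma, where 1.56% of all genes were. The call of CCNO was lost with median-ratio scaling (adjusted p-value 0.064) and with no filter (adjusted p-value 0.108, limma). FOXJ1 was at 0.6, 0.38 and 0.41 FPKM in control and 14.6, 13 and 8.28 FPKM with SAR, without overlap. Intraflagellar transport, the BBSome and the transition zone are used by primary cilia as well. Of 56 tested genes of these, 1 was upregulated by limma, IFT70B at 1.16, where 3.41% of all tested genes were. None was downregulated, where 1.58% were. At an adjusted p-value under 0.05 alone 28 were higher, where 23.7% of all tested genes were, and 3 were lower, where 9.55% were. The median was 0.25, and 0.13 with median-ratio scaling, where all tested genes stood at 0.119 and 0.001.

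Marker lists were read beside these values. All 6 tested of 8 node and notochord markers were upregulated, NOTO, FOXJ1, CHRD, FOXA1, TBXT and FOXA2, where 3.41% of all tested genes were. Among them, NOTO and FOXJ1 were at 0.0656 and 0.463 FPKM in control and passed the filter only through their SAR libraries. With no filter 7 of the 8 were upregulated by limma, where 1.56% of all genes were. The sum over the 8 was 29.1 to 31.1 FPKM in control and 96.8 to 115 FPKM with SAR. Of 8 markers of multiciliated cells 2 were tested and 1, CCNO, was upregulated, where 3.41% of all tested genes were. The sum over these 8 markers was 1.58 to 2.97 FPKM in control and 2.99 to 3.71 FPKM with SAR. CCNO was not called with median-ratio scaling or with no filter, as given above. Of the 6 markers under 0.5 FPKM in mean, MCIDAS, DEUP1, CDC20B, FOXN4 and TP73 had overlapping groups. GMNC had all SAR libraries above the controls, with means of 0.0762 FPKM in control and 0.282 FPKM with SAR. Its limma-voom log2 difference was 2.41 (adjusted p-value 0.0155), and with no filter it was not called (adjusted p-value 0.16, limma). CDC20B was at 0 in control replicate 3, and NOTO was at 0 in the same library. Of 10 DE markers, 3 were upregulated (SOX17, FOXA2 and HHEX), where 3.41% of all tested genes were. Another 4 were downregulated (GATA4, EOMES, CER1 and GSC), where 1.58% were, and all 10 were expressed in every library. At an adjusted p-value under 0.05 alone (limma), 4 of the 10 were higher and 6 lower. Those shares were 23.7% and 9.55% over all tested genes. With median-ratio scaling SOX17 (0.93) and HHEX (0.90) were short of the minimum change. There, 1 of the 10 was upregulated and 4 downregulated, where 2.46% and 2.21% of all tested genes were. The sum over the 10, in which the most abundant genes weigh most, was 3960 to 5060 FPKM in control and 2070 to 2120 FPKM with SAR. Their median log2 difference was -0.54. Of 7 mesoderm markers 4 were tested, and 1, TBXT, was upregulated and 1 downregulated. The sum over the 7 was 49.1 to 51.8 FPKM in control and 27.0 to 39.4 FPKM with SAR. All 6 pluripotency markers were tested, and 0 were upregulated and 1 downregulated. For neural ectoderm 2 of 6 markers were tested, with 1 upregulated and 0 downregulated. For extraembryonic endoderm 2 of 5 were tested and none was called. FOXA2 stands in the DE list and in the node list, TBXT in the mesoderm and node lists, and FOXJ1 and NOTO in the regulator and node lists. The part of any of these cell types in the levels of the axoneme genes was not tested.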

How the data were processed

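The authors selected mRNA with oligo(dT) beads, sequenced paired-end reads and deposited FPKM, 1 column per library. The submitters' processing notes name HISAT2, featureCounts, DESeq2 and GRCh38.p13, while the annotation release and strand setting are not given in the sources used here. Chi-square values between libraries of a group were 3.61 to 11.8 per degree of freedom, above sampling noise, and each counted as 1 replicate. Differences were tested with limma 3.58.1 in R 4.3.3 on log2(FPKM + 0.1), two-sided, with a trend in eBayes, Benjamini-Hochberg adjustment and no block, after it had been tested on simulated data. Python 3.11.15 with scipy 1.17.1, numpy 2.4.6, pandas 2.3.3 and matplotlib 3.10.9 made summaries and plots. Whole reads were recovered for all but 2 of the 40396 genes within 0.02 of a read, with totals scaled by GENCODE 29 exon lengths, which 23401 genes matched exactly. Gene positions are those of GENCODE 29 (GRCh38), and promoters are RefSeq's.

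All 50 genes are accounted for by role. Values in every library are given for upregulated genes with at least 1 FPKM in the higher group and for the highest gene of each role that was not called, and of comparison lists the 5 called genes with the smallest adjusted p-values may be named. The genes, lists and tests were chosen with earlier results of these data known. Alternatives were pseudocounts of 1 and 0.01, no filter, a minimum of 1 FPKM, median-ratio and quantile scaling, no trend, a replicate block, limma-voom on recovered reads, no minimum change and each library left out. Table columns outside the 6 libraries numbered 0.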

Additional observations from a re-analysis of the deposited data

How the results depend on the processing

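Of 466 values of the 30 tested genes under the alternatives, 426 kept their direction and call, 16 lost and 12 gained the call and 12 changed sign, and 7 upregulated genes kept theirs under every alternative run. Upregulated axoneme genes numbered 14, and 7 with a pseudocount of 1, 9 with a minimum mean of 1 FPKM (20 genes tested), 24 with limma-voom at 10 reads or more, and 11 to 15 with each library left out. DRC3 was the 1 downregulated gene with a pseudocount of 0.01, median-ratio or quantile scaling, either limma-voom fit or no minimum change. Over all genes, upregulated counts were 169, 369, 340, 923 and 3885 with a pseudocount of 1, a minimum mean of 1 FPKM, quantile scaling, limma-voom at 10 reads and no minimum change, against 559, and downregulated counts were 141, 409 and 1563 with a pseudocount of 1, quantile scaling and no minimum change, against 259. Upregulated genes of the 3 comparison lists numbered 3, 6, 20 and 49 with a pseudocount of 1, a minimum mean of 1 FPKM, limma-voom at 10 reads and no minimum change, against 10, and downregulated ones 1 and 3 with the last 2, against 0. The median of the axoneme genes was 0.50, 0.72, 0.75, 0.84, 0.74 and 1.12 with a pseudocount of 1, no filter, a minimum mean of 1 FPKM, median-ratio scaling, quantile scaling and limma-voom at 10 reads, and 0.85 to 1.00 with a library left out, 0.85 without SAR replicate 3. Sign changes were in genes near 0: RSPH3 (-0.04 by median ratio, -0.06 by quantile), CCDC65 (-0.02), IQCA1 (-0.0) and STK33 (-0.05) by quantile, and TEKT3 (-0.03 and -0.16). With each library left out, RSPH3 ran from -0.01 to 0.17, CFAP46 from -0.18 to 0.08 and TEKT3 from -0.05 to 0.31. The cause was not tested. Deviations of same-numbered libraries had correlations of 0.07, 0 and 0.02, against -0.08 to 0.07 for the other combinations. These values show no pairing by number, but cannot tell whether such libraries were made together. With a replicate block 13 axoneme genes were upregulated (CFAP52 at an adjusted p-value of 0.0524, limma) and 0 downregulated, against 546 and 274 of all genes. Depth limits the genes under 0.5 FPKM, of which 4 averaged fewer than 10 reads.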
